A study of Rattus norvegicus with 23 samples.

Results

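The comparison described here is that of left ventricular RNA from 16-month-old against 12-month-old Wistar-Kyoto (WKY) rats, an inbred strain with normal blood pressure. It was taken by array title, and its members are 8 of the 23 arrays deposited, 4 of each age. The study profiled rat left ventricle on Affymetrix rat genome arrays, on which short oligonucleotides grouped into probe sets report the amount of a transcript as a fluorescence intensity. The other 15 arrays hold WKY rats of 20 months (3 arrays) and spontaneously hypertensive rats (SHR), the related strain with inherited high blood pressure, of 12, 16 and 20 months (4 arrays each). No treatment or transgene is given for any group, and the labels name neither sex nor the animal behind each sample. They call the arrays separate samples, and the p-values below cover only the variation among them, part of which could be technical. Of 8740 probe sets that are not array controls, 7280 were bright enough to be tested, 5920 of them with 1 gene symbol, covering 4172 genes.

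The labels set WKY beside SHR as the age-matched strain and list heart failure among their keywords, and the step from 12 to 16 months in WKY asks which transcripts differ between these ages in hearts without inherited hypertension. The chambers of the mammalian heart are built from different myosin light chains. Myl7 (regulatory) and Myl4 (essential) belong to the atrium, whereas Myl2 (regulatory) and Myl3 (essential) belong to the ventricle. Nppa encodes atrial natriuretic peptide, a hormone released mainly by the atria that the ventricle makes before birth and again under load. Fos, Egr1 and Nr4a1 are immediate early genes, whose transcripts appear within minutes of a stimulus and are then lost rapidly.

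All 8 arrays were hybridised on 1 day, with chips of 1 lot and with 1 cocktail of spiked controls, per the instrument records. Every 12-month array was washed on fluidics station 1 and every 16-month array on station 2, so age and station cannot be told apart in any result below. The 9 spiked bacterial control probe sets, which do not come from rat RNA, were all dimmer at 16 months, with a median log2 difference of -0.31. The array medians also did not overlap, at 9.4 to 10.5 at 12 months and 10.6 to 11.4 at 16 months. The part that either difference plays in the gene results was not tested. RNA integrity was read from the ratio of 3' to 5' probe sets of control transcripts. For beta-actin it was 1.41 ± 0.19 at 12 months and 1.73 ± 0.14 at 16 months (SD, n = 4 each), a difference of 0.30 on the log2 scale that did not pass an exact two-sided permutation test (p = 0.0571, adjusted over 3 transcripts 0.171; the smallest p this design allows is 0.0286). The ratios for GAPDH (1.28 ± 0.07 and 1.31 ± 0.02) and hexokinase (4.14 ± 0.706 and 4.73 ± 1.122; SD, n = 4 each) did not pass either (exact permutation p = 0.743 and 0.457).

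Array 3 of 12 months stood apart. It was the highest of the 8 arrays on 1468 probe sets (20.2%) and the lowest on 2044 (28.1%), while the other 7 arrays were the lowest on 575 to 1002. Its score on the leading principal component was 17.0, against -5.2 to 0.6 for the others. Probe sets of 1 gene could go opposite ways on it. The Myl2 probe set M11851_at was brightest there at 3383, against 2492 to 2591 on the other 12-month arrays, whereas Myl2 X07314cds_at was dimmest there at 3340, against 5029 to 5182.

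**Figure D1:**
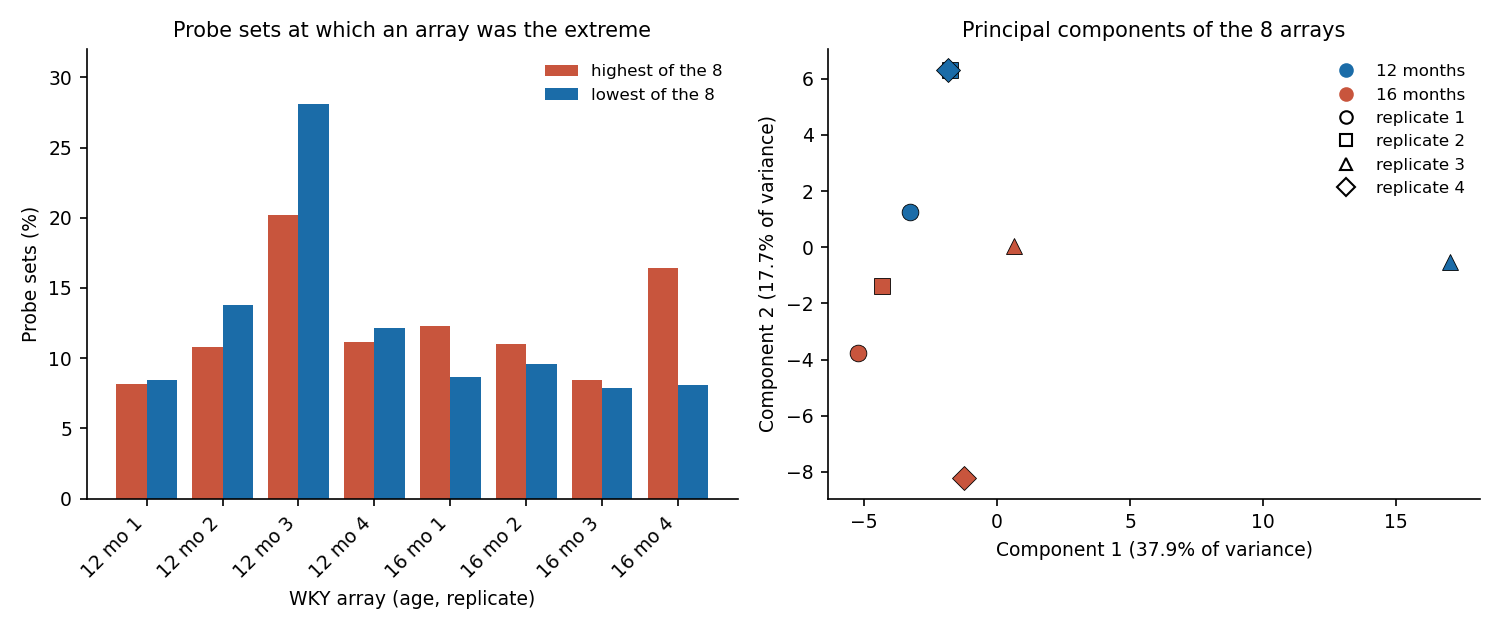
Left, the percentage of 7280 probe sets at which each of the 8 WKY arrays had the highest (red) or lowest (blue) value. Right, the scores of the 8 arrays on the first 2 principal components (37.9% and 17.7% of the variance), coloured by age and shaped by replicate. Array 3 of 12 months is the extreme on the most probe sets and lies at 17.0 on component 1, away from the other 7.

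Between 12 and 16 months 1 probe set changed. It was a fall of Myl7, out of 7280 tested (0.0137%, limma with Benjamini-Hochberg adjustment, adjusted p below 0.05). At an unadjusted p below 0.05 there were 348 probe sets (4.78%), of which 236 were higher (3.24%) and 112 lower (1.54%) at 16 months, where chance alone gives about 364. The excess of higher over lower values depended on the scaling, since the share that was higher went from 67.8% to 52.4% with quantile normalization, 48.8% with cyclic loess and 38.7% with median centring. The 4 arrays of one age lay wholly above those of the other for 247 probe sets (3.39%), 166 of them higher at 16 months (2.28%) and 81 lower (1.11%). Changes beyond 0.5 on the log2(intensity + 32) scale were seen at 9 probe sets. The 3 falls among them were all atrial light chains, 2 probe sets of Myl7 and 1 of Myl4. The 6 rises were 2 probe sets of Fos, 2 of Egr1, 1 of Sorbs2 and 1 of Kctd13, a gene named here after its value was seen, and none of these 6 passed the adjusted test. The added 32 shrinks the log2 change of any gene whose intensity lies near or below it.

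**Figure D2:**
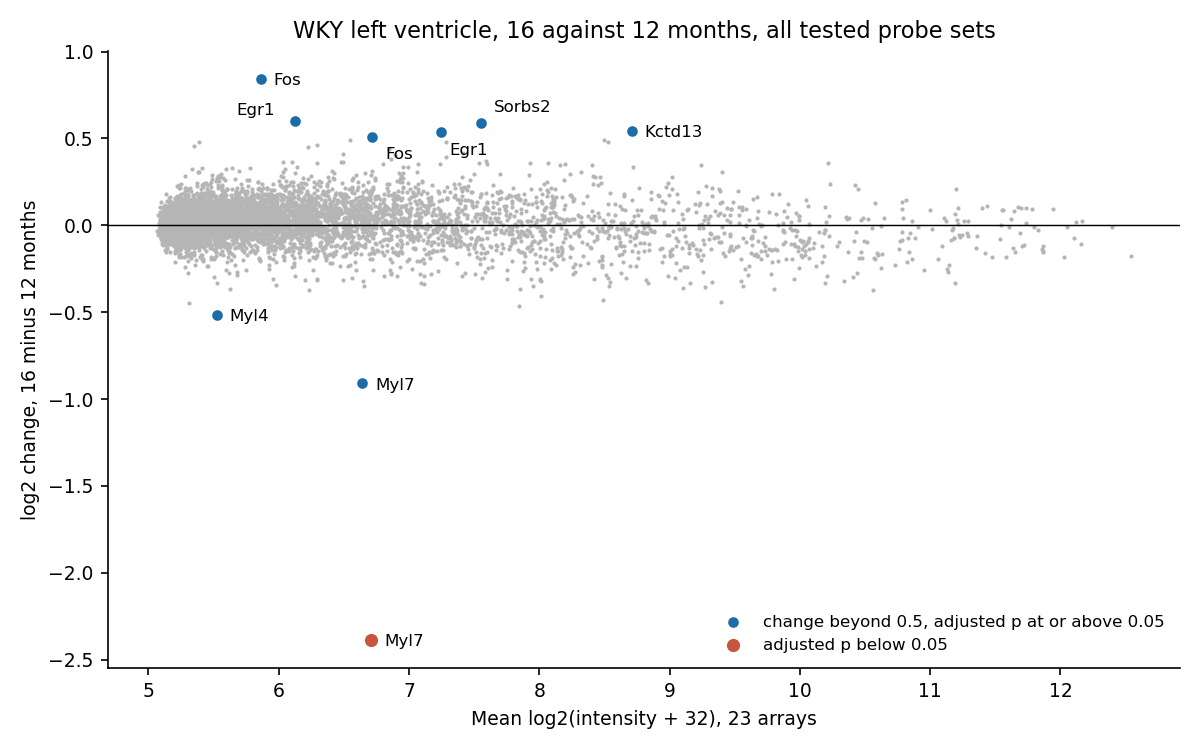
Each point is 1 of 7280 probe sets, with its mean log2(intensity + 32) over all 23 arrays on the horizontal axis and its log2 change from 12 to 16 months in WKY on the vertical axis. The red point is Myl7 at -2.39, which passed the adjusted test, and the 8 blue points are the other probe sets beyond 0.5 in either direction.

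On its brighter probe set Myl7 fell from 185 to 502 at 12 months to 15.3 to 87.8 at 16 months. These 16-month values were still above the medians of their arrays (10.6 to 11.4). The promoters of the 2 atrial light chain genes are shown because these were the genes with the largest falls. Each is the 250 bases before the annotated start, 5′ to 3′ on the gene's strand, from RefSeq on build GRCr8: Myl7 at chr14:84996625-84996874 (minus strand) and Myl4 at chr10:89975900-89976149 (plus strand). Capitals mark motifs found by a search of both strands for TATAAA, the cyclic AMP response element TGACGTCA, the E-box CANNTG, the CArG box and the MEF2 box. No motif found overlapped another.
Myl7: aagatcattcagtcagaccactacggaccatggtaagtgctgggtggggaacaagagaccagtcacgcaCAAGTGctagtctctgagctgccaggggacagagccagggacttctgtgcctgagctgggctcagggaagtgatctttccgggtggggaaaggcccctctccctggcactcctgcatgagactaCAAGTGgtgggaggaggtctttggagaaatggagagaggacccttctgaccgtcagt
Myl4: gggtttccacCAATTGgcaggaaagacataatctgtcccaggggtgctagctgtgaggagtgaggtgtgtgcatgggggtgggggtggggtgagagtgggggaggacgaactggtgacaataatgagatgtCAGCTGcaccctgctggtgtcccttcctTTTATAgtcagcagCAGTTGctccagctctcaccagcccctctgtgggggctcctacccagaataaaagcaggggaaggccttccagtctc
In the Myl7 window the E-box occurs 181 to 176 and 57 to 52 bases before the start, with the same letters both times. The Myl4 window has E-boxes 240 to 235, 119 to 114 and 77 to 72 bases before the start, and TATAAA on the opposite strand 91 to 86 bases before it. Of 33469 rat promoter windows of this length, 65.5% hold an E-box and 12.9% hold TATAAA.

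The brighter Myl7 probe set read 502, 185, 375 and 245 on arrays 1 to 4 of 12 months, and 15.3, 87.8, 20.8 and 26.6 on arrays 1 to 4 of 16 months. Every 12-month array lay above every 16-month array, and the second array of 16 months stood well above the other 3 of its age. The mean went from 327 ± 141 to 37.6 ± 33.8 (SD, n = 4 each), which is 8.69 times lower, or 15.6 times without array 2 of 16 months. Myl7 changed by -2.39 ± 0.33 (SE) on the log2 scale (limma adjusted p = 0.00113). With the fluidics module as a block in a fit of the 8 arrays the change had the same size and did not pass (limma adjusted p = 0.0722). A second probe set built on the same source sequence read 167, 101, 113 and 90.2 at 12 months and 35.0, 62.4, 45.5 and 45 at 16 months. It also separated the ages completely, with the highest value of each age on the same arrays, at -0.91 ± 0.17 (limma adjusted p = 0.0503), just short of the threshold. It passed under 6 of the 22 alternative settings tried.

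Myl4, the atrial essential light chain, was dim at both ages. Its brighter probe set read 32, 15.1, 22.0 and 21.7 at 12 months and 3.2, 9.8, 6.4 and 5.1 at 16 months. The ages did not overlap, the first array of 12 months was again the highest of its age, and the second array of 16 months again the highest of its own. All 4 values at 16 months lay below the medians of their arrays (10.6 to 11.4), so no ratio is given. The log2 change of -0.52 ± 0.10 did not pass (limma adjusted p = 0.101). The other Myl4 probe set also showed no overlap, at 25.7, 8.7, 16.2 and 11.4 against 0.7, 7.1, 1.3 and 1.3 (log2 change -0.45 ± 0.12, limma adjusted p = 0.518).

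Nppa has 4 probe sets on the array and each was lower on average at 16 months, by 0.21 to 0.33 on the log2 scale, but none passed and the ages overlapped in all 4. The one of highest mean read 1842, 1510, 1852 and 1882 at 12 months and 1122, 1970, 1222 and 1401 at 16 months. The overlap came from the second array of 16 months, the highest of the 8, which was also the highest of its age for both Myl7 and both Myl4 probe sets. Without array 3 of 12 months the 4 Nppa changes ran from -0.20 to -0.48. Without that array Myl7 passed, at -2.30, and Myl4 stood at -0.52. Myl7 passed with any 1 of the 8 arrays left out.

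No other marker of atrial muscle passed. Of the 20 genes in the atrial list 11 were measured and all 11 passed the brightness filter, with Myl7 the only one called (0.024% of all 4172 genes were) and Myl4 the only other at an unadjusted p below 0.05. Over all 4172 genes 3.19% were higher and 1.27% lower at that threshold. The list median was -0.06, beside 0.02 over all 4172 genes, and 5 of 11 members were positive, beside 59.6%. With cyclic loess normalization the list median was -0.000266. Pam, which amidates peptides and is abundant in atrial muscle, stood at 1595 ± 239 and 1491 ± 157 (log2 change -0.09 ± 0.11). Gja5, a gap junction channel of atrium and conduction fibres, stood at 52.8 ± 11.3 and 49.2 ± 6.5 (log2 change -0.06 ± 0.10; SD, n = 4 each). Besides Myl7 and Myl4, 2 members separated the ages, both higher at 16 months. Over all 7280 probe sets 2.28% were higher and 1.11% lower without overlap. Cacna1g, a T-type calcium channel, read 28.4, 26.2, 29.2 and 34.1 at 12 months and 37.6, 34.3, 35.6 and 42.6 at 16 months (log2 change 0.18 ± 0.09), and Nr2f1, a nuclear receptor, was dim at 6.12 ± 1.00 and 8.83 ± 0.71 (log2 change 0.10 ± 0.06; SD, n = 4 each). The summed intensity of the 11 genes was 5840 to 6597 at 12 months and 5175 to 5928 at 16 months. Sarcolipin and Bmp10, 2 defining atrial genes, are not among the symbols of this array. In whole tissue, fewer cells of a type and less RNA per cell cannot be told apart, and the amount of atrial tissue in each sample was not tested.

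Beyond the step itself, Myl7 at 20 months in WKY read 31.6, 37.7 and 94.0, below every 12-month array. The 20-month arrays were hybridised on another day and washed on station 1, the station of the 12-month arrays. In SHR the same Myl7 probe set stood at 54.1 ± 31.7 at 12 months and 41.6 ± 3.2 at 16 months (SD, n = 4 each). These SHR arrays were hybridised on other days, which differed in part between their ages, and all washed on station 1. The 12-month WKY arrays were thus the high group, and all 4 of them exceeded the highest 12-month SHR array at 96.3. The WKY change minus the SHR change was -2.23 ± 0.47 for Myl7, which did not pass (limma adjusted p = 0.107).

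**Figure D3:**
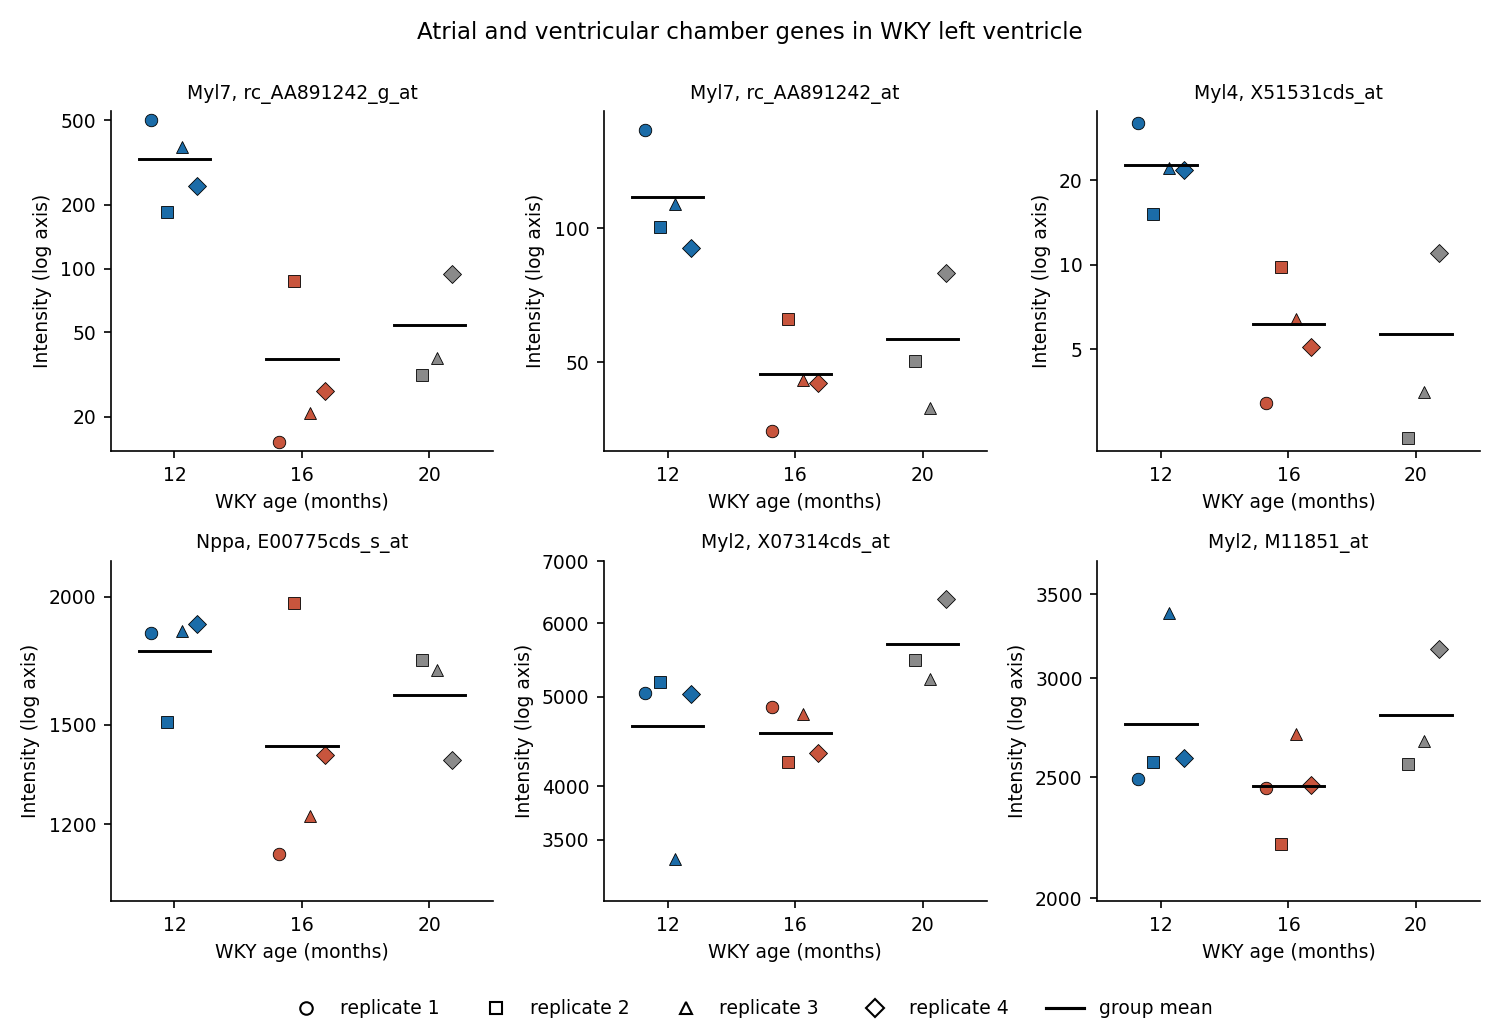
Intensity (log axis) of atrial light chain genes Myl7 and Myl4, of Nppa and of the ventricular light chain Myl2 on each WKY array at 12, 16 and 20 months, with the replicate number as the symbol and the group mean as a bar. The 12-month arrays lie above all 16-month arrays for Myl7 and Myl4, the ages overlap for Nppa, and array 3 of 12 months is the lowest point of one Myl2 probe set and the highest of the other.

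The ventricular programme was bright and did not pass at any gene. All 16 ventricular myocyte markers on the array were tested, and 7 were positive, beside 59.6% over all 4172 genes. None reached an unadjusted p below 0.05, beside 3.19% higher and 1.27% lower over all 4172 genes, and the median was -0.01. Myl2 stood at 4650 ± 876 and 4564 ± 312 on its brightest probe set and Myl3 at 3625 ± 505 and 3325 ± 401 (SD, n = 4 each). The cardiac myosin heavy chains Myh6 (fast) and Myh7 (slow) had log2 changes of 0.11 ± 0.13 and -0.18 ± 0.14, or 0.03 and -0.09 without array 3 of 12 months. Nppb, the B-type natriuretic peptide that marks wall stress, had a change of 0.05 ± 0.14, or 0.01 without that array. None of these passed, and the standard error of a change had a median of 0.09 over all probe sets. Among calcium genes, Casq2, which stores calcium in the sarcoplasmic reticulum, read 231, 234, 222 and 200 at 12 months and 248, 258, 240 and 273 at 16 months. All 16-month values were the higher, by 0.18 ± 0.10 (limma adjusted p = 0.998). Slc8a1, the sodium-calcium exchanger, had a change of 0.25 ± 0.13, or 0.17 without array 3 of 12 months, and Cacnb2, a calcium channel subunit, one of 0.20 ± 0.11. The calcium handling list had 18 of 27 positive, beside 59.6% over all 4172 genes, and a median of 0.07 with none at an unadjusted p below 0.05. Without array 3 of 12 months the median was 0.03 and 1 was higher at that threshold, beside 122 of all 4172 genes.

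Immediate early genes held the largest positive values, though none passed. The promoter of Egr1, a zinc finger transcription factor, is shown because its window holds the CArG box, the site of serum response factor through which stimuli reach these genes. It is the 250 bases before the start at chr18:26736828-26737077 on the plus strand of GRCr8 (RefSeq), with the CArG boxes in capitals.
Egr1: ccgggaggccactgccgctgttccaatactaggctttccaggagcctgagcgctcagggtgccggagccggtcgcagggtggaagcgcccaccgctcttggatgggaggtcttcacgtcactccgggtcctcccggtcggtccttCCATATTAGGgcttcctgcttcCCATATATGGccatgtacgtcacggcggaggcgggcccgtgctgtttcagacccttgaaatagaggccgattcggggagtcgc
The boxes lie 105 to 96 and 83 to 74 bases before the start, and 1.5% of the 33469 windows hold one.

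Fos, a subunit of the AP-1 transcription factor, read 57.1, 63.2, 55.5 and 64.8 at 12 months and 97.3, 127, 72.3 and 106 at 16 months on its brightest probe set. The ages did not overlap and array 3 of 16 months was the lowest of its age. The mean was 1.67 times higher, with a log2 change of 0.51 ± 0.18 (limma adjusted p = 0.837). The other 2 Fos probe sets had changes of 0.84 ± 0.25 and 0.46 ± 0.15, and on both array 3 of 16 months lay among the 12-month values.

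Egr1 read 130, 126, 135 and 113 at 12 months and 251, 198, 136 and 219 at 16 months on its brightest probe set. Its array 3 of 16 months barely exceeded the highest 12-month array, and the other 3 were far above it. The change was 0.54 ± 0.24 (limma adjusted p = 0.998). Another 2 Egr1 probe sets had changes of 0.60 ± 0.22 and 0.26 ± 0.10, and the remaining one stood at 0.01 ± 0.10. Nr4a1, an orphan nuclear receptor, read 49.2, 36.8, 36.6 and 27.9 at 12 months and 77.3, 101, 32.3 and 63.6 at 16 months, with array 3 of 16 months again the lowest of its age. Its change was 0.49 ± 0.28 (limma adjusted p = 0.998). At 20 months all 3 genes were below their 16-month means, with Fos at 33.3 to 52.7, Egr1 at 50.3 to 120 and Nr4a1 at 21.3 to 27.3. The 20-month arrays were hybridised on another day and washed on station 1, the station of the 12-month arrays. The part that day and station play was not tested.

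Across the immediate early list 29 of 35 tested genes were positive, with a median of 0.07, and 5 were higher and 0 lower at an unadjusted p below 0.05. Over all 4172 genes 59.6% were positive, 3.19% were higher and 1.27% were lower at that threshold. Besides Fos and Egr1 the 5 were Klf4 (0.37 ± 0.14), Sgk1 (0.20 ± 0.07), a kinase induced by serum and glucocorticoids, and Dusp6 (0.23 ± 0.10), a phosphatase that switches off ERK signalling. Jun, the AP-1 partner of Fos, stood at 0.15 ± 0.15, or 0.06 without array 3 of 12 months. Without that array the median of the list was 0.02, 24 of 35 were positive, and the changes of Fos and Egr1 were 0.49 and 0.56. At an unadjusted p below 0.05, 6 of the list were then higher and 0 lower, beside 122 and 45 of all 4172 genes.

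**Figure D4:**
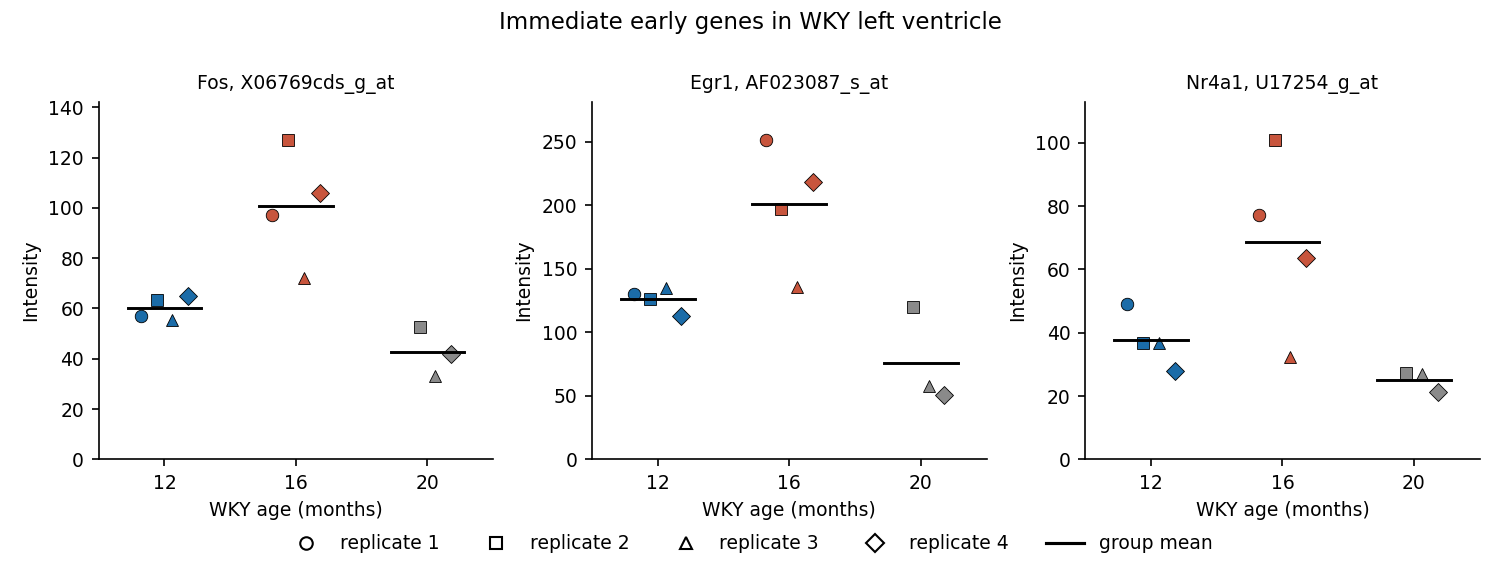
Intensity (linear axis from 0) of Fos, Egr1 and Nr4a1 on each WKY array at 12, 16 and 20 months, with the replicate number as the symbol and the group mean as a bar. At 16 months arrays 1, 2 and 4 lie above all 12-month arrays in each panel, and array 3 lies close to the 12-month values.

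No gene of fuel use passed. Of 28 glycolysis genes 3 were higher and 0 lower at an unadjusted p below 0.05 (median 0.06), of 47 fatty acid genes 2 and 0 (median 0.02), and of 52 oxidative phosphorylation and citrate cycle genes 2 and 3 (median -0.01). Over all genes 3.19% were higher and 1.27% lower. Without array 3 of 12 months the glycolysis list had 2 higher and a median of 0.03, and the fatty acid list 1 higher. The oxidative phosphorylation median was -0.11 without array 3 of 12 months, with 0 genes higher and 2 lower, and turned to 0.04 with quantile normalization and 0.05 with cyclic loess. Slc16a1, a lactate and pyruvate carrier, read 104, 100.1, 101 and 82.7 at 12 months and 123, 129, 144 and 152 at 16 months. The ages did not overlap, at 0.39 ± 0.15, and a second, brighter probe set stood at 0.12 ± 0.15, or 0.07 without array 3 of 12 months. Vdac1, the pore of the outer mitochondrial membrane, read 112, 122, 86.3 and 123 against 139, 186, 160 and 183 on one probe set, again without overlap (0.48 ± 0.12, limma adjusted p = 0.465). Its other and brighter probe set stood at 0.14 ± 0.13, with overlap, or -0.04 without that array.

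Pdk4, which restrains pyruvate entry into the citrate cycle, was dim at 3.6 ± 2.2 and 10.9 ± 2.5 (SD, n = 4 each), with no overlap and a change of 0.27 ± 0.10. Pygb, a glycogen phosphorylase, had a change of 0.30 ± 0.12, Pdhb, a pyruvate dehydrogenase subunit, one of 0.29 ± 0.11, and Pgk1, a glycolytic kinase, one of 0.20 ± 0.09. Acsl1, which activates long-chain fatty acids, had a change of 0.36 ± 0.14 on its brightest probe set. It was 0.22 without array 3 of 12 months, on which that probe set was lowest at 177. Its other probe sets stood at 0.20 ± 0.12, -0.16 ± 0.13 and -0.02 ± 0.11. The ATP synthase subunits Atp5f1c and Atp5f1d were lower, at -0.30 ± 0.12 and -0.28 ± 0.12, or -0.16 and -0.14 without array 3 of 12 months. Cd36, the fatty acid carrier, stood at 0.08 ± 0.13, or 0.01 without it.

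No proteasome gene passed. Of 38 genes of the proteasome, ubiquitin and autophagy list, 0 were higher and 3 lower at an unadjusted p below 0.05, beside 3.19% and 1.27% over all genes, and without array 3 of 12 months 1 was higher and 2 lower. The 3 were Psmb4, Psmb3 and Psmb1, which encode subunits of the catalytic core. Psmb4 read 378, 425, 547 and 351 at 12 months and 306, 322, 318 and 346 at 16 months. The ages came close without overlapping, and array 3 of 12 months was the highest. All 3 Psmb4 probe sets were lower, by 0.35 ± 0.13, 0.41 ± 0.16 and 0.46 ± 0.16, and by 0.23, 0.27 and 0.33 without that array. Psmb3 and Psmb1 had changes of -0.24 ± 0.09 and -0.23 ± 0.11, which were -0.22 and -0.21 without it. Psmd1, a subunit of the regulatory cap, was higher on one probe set (0.33 ± 0.13), and its 3 other probe sets ranged from -0.02 to 0.10.

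Several genes outside the lists also separated the ages without passing. Sorbs2, an adaptor of the sarcomeric Z-disc, read 116, 81.4, 133 and 78.2 at 12 months and 141, 176, 144 and 215 at 16 months. The ages were close but distinct on this probe set (0.59 ± 0.17, limma adjusted p = 0.663), and its 2 other probe sets, at 0.10 ± 0.17 (0.17 without array 3 of 12 months) and 0.09 ± 0.14, overlapped. Ldb3, another Z-disc protein, had changes of 0.40 ± 0.12, 0.23 ± 0.13 and 0.02 ± 0.16 on its 3 probe sets, the last 0.13 without that array. Slc3a2, the heavy chain of an amino acid transporter, had 0.44 ± 0.15 on one probe set and 0.12 ± 0.12 on the other, which was -0.03 without it.

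Among the lower genes, Akt1, a kinase of insulin signalling, was tightly grouped at 201, 184, 192 and 190 against 152, 156, 159.8 and 142. Every 12-month value lay above every 16-month value, and the change was -0.28 ± 0.09 (limma adjusted p = 0.781) with or without array 3 of 12 months. A second Akt1 probe set stood at 0.02 ± 0.10. Gstp1, a glutathione transferase, was at -0.34 ± 0.10 and -0.17 ± 0.10 on its 2 probe sets. Tsc22d1, a leucine zipper regulator, was at -0.36 ± 0.17, Car4, a carbonic anhydrase of the membrane, at -0.34 ± 0.11 and 0.02 ± 0.08 on its 2 probe sets, and RT1-Ba, a class II antigen-presenting chain, at -0.37 ± 0.16. Icam2, an adhesion protein of endothelium, stood at 18.9 ± 4.7 and 10.2 ± 4.2 (SD, n = 4 each) with a change of -0.27 ± 0.07 (limma adjusted p = 0.518).

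Genes of scarring, an attribute of the ageing and failing ventricle, did not pass. Of 56 matrix genes tested 3 were higher and 1 lower at an unadjusted p below 0.05, beside 3.19% and 1.27% over all genes. Their median was 0.03, and without array 3 of 12 months 1 was higher and 0 lower. The fibrillar collagens Col1a1 and Col3a1 had changes of 0.16 ± 0.22 and -0.03 ± 0.17, and both were dimmest on array 3 of 12 months, at 85.2 and 67.5. Without that array they stood at -0.04 and -0.18. Fn1, fibronectin, had a change of 0.13 ± 0.10, Postn (2.62 ± 1.30 and 3.95 ± 2.67) and Thbs4 (3.90 ± 1.4 and 5.25 ± 2.28; SD, n = 4 each) were near the floor at both ages. Plod2, which hydroxylates collagen lysines, read 13.8, 14.1, 12.9 and 13.2 against 21.1, 16.4, 21.9 and 24.0. It did not overlap between ages, at 0.21 ± 0.07 (limma adjusted p = 0.699). Timp2, an inhibitor of matrix proteases, had a change of -0.29 ± 0.13, or -0.18 without array 3 of 12 months, on which it was highest.

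No marker of another cell type passed. The fibroblast, endothelial, smooth muscle, macrophage, lymphocyte and nerve lists had medians from -0.0044 to 0.0349. These lists had 13, 12, 11, 13, 18 and 17 genes tested, in that order. Only Icam2, in the endothelial list, had an unadjusted p below 0.05 among their members, and it was lower. Over all 4172 genes 3.19% were higher and 1.27% lower at that threshold. Of 6 mesothelial and epithelial genes tested 2 were higher at that threshold, beside 3.19% over all genes. These 2 did not overlap between ages, beside 2.28% of all probe sets that were higher without overlap. Krt18, an epithelial keratin, read 6.1, 1.2, 6.3 and 6.4 at 12 months and 9.1, 8.9, 8.2 and 9.7 at 16 months (0.15 ± 0.05, limma adjusted p = 0.839). Epcam, an epithelial adhesion protein, read 3.7, 1.6, 0.4 and 2.4 against 4.4, 5.2, 5.3 and 4.4 (0.11 ± 0.05), and without array 3 of 12 months 1 of the 6 was higher. All these values lay below the medians of their arrays. The 5 erythrocyte genes tested were all positive, beside 59.6% over all 4172 genes, with a median of 0.17. Their summed intensity was 1363 to 1726 at 12 months and 1527 to 1944 at 16 months, and none of the 5 genes reached an unadjusted p below 0.05. Without array 3 of 12 months their median was 0.21 and 2 of 5 did, both higher, beside 122 of all 4172 genes that were higher. Hbb-b1, a beta globin whose probes may also read its near-identical copies, stood at 453 ± 49 and 556 ± 53 (SD, n = 4 each), a change of 0.28 ± 0.14. Ribosomal protein genes, a list added after the values were seen, had 8 of 43 positive, beside the same 59.6%. Their median was -0.10, and 20 of the 43 were highest on array 3 of 12 months. Without that array 9 of 43 were positive and the median was -0.08. With all arrays 2 of the 43 were higher and 3 lower at an unadjusted p below 0.05, beside 3.19% and 1.27% over all genes. Taken from each gene's mean over the 8 arrays, the list medians overlapped between ages. They ran from -0.04 to 0.05 on the 12-month arrays and from -0.13 to 0.06 on the 16-month arrays.

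**Figure D5:**
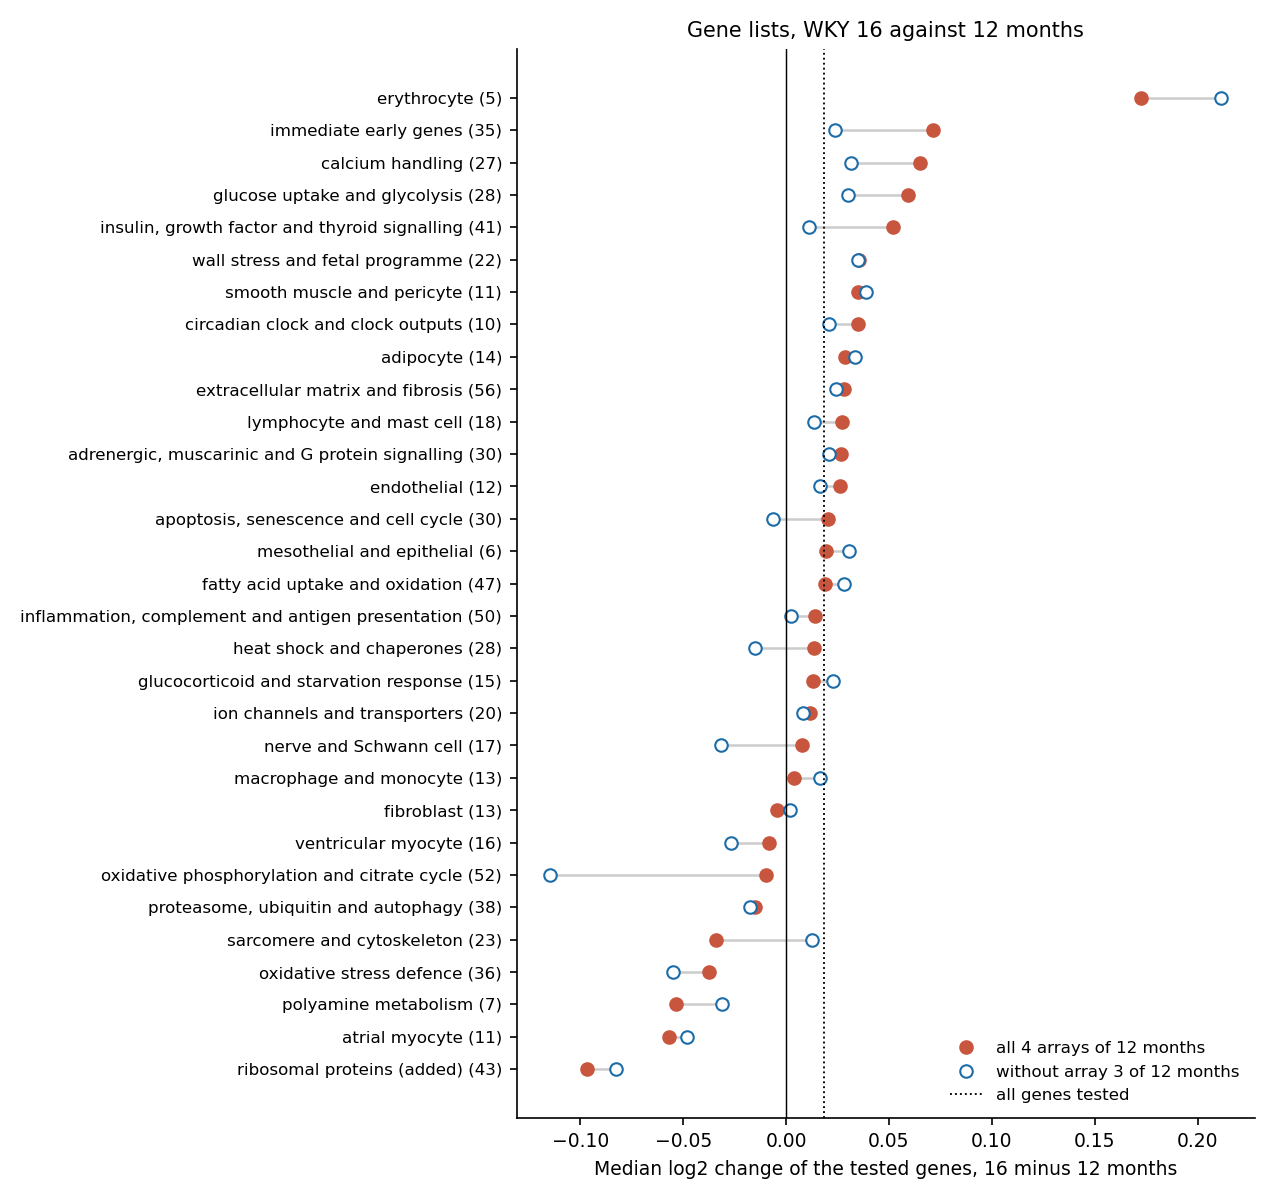
Median log2 change from 12 to 16 months of the tested genes of each list (number tested in brackets), with all arrays (filled) and without array 3 of 12 months (open). The dotted line is the median over all 4172 genes at 0.02. The red cell list lies farthest to the right at 0.17 and the ribosomal protein list farthest to the left at -0.10, and the oxidative phosphorylation list moves most when the array is left out.

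Whether the step differs from the same step in SHR was tested as the WKY change minus the SHR change. The SHR arrays of both ages were washed on station 1, on other days and with another cocktail. Their chip lot differed from the WKY lot where it was recorded. No lot is recorded for SHR arrays 3 and 4 of 16 months. The change of station thus enters the WKY step only, so this difference does not separate strain from station. Hybridisation day, in turn, changed within the SHR step only. SHR arrays 3 and 4 of 12 months shared a day with SHR arrays 1 and 2 of 16 months. The other SHR arrays of each age were on a day without arrays of the other age. The part that day plays in the SHR step and in the difference was not tested. No probe set passed (0 of 7280, 0%, limma), 516 had an unadjusted p below 0.05 (7.09%), and in SHR itself 27 passed (0.371%) and 12.7% had an unadjusted p below 0.05. Among the members above, Nppa stood at -0.33 ± 0.18 in WKY and 0.52 ± 0.18 in SHR on its leading probe set, a difference of -0.85 ± 0.25 (limma adjusted p = 0.381). Tsc22d1 stood at -0.36 ± 0.17 in WKY and 0.81 in SHR, a difference of -1.17 ± 0.23 (limma adjusted p = 0.0976). Thbs4, a matrix protein of the loaded heart, stood at 0.05 ± 0.16 in WKY and 1.04 in SHR, a difference of -0.98 ± 0.22 (limma adjusted p = 0.166). Pax4, a transcription factor of the endocrine pancreas, had the smallest limma adjusted p of this difference, at 0.0559, on a dim probe set that read 4.9, 4.2, 7.9 and 5.9 at 12 months and 28.4, 17.0, 16.7 and 20.9 at 16 months in WKY. Its second probe set from the same source stood at 0.01 ± 0.05 in WKY.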

How the data were processed

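The authors deposited probe set intensities on a linear scale, 1 value per probe set and array for 23 arrays of 6 groups. The program that made them is not given in the sources used here. On every array the 2% trimmed mean was 50.08 to 50.11, so arrays had been scaled to a common level. The deposited instrument records (entries of other kinds) gave only hybridisation day, lot, cocktail, station and module. Gene symbols came from the platform annotation of 2016: of 8740 probe sets, 7006 had 1 symbol, 308 several and 1426 none.

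Probe sets were tested where 3 or more arrays had a value beyond that array's 30th percentile. The log2(intensity + 32) values of all 23 arrays were fitted with limma 3.58.1 in R 4.3.3 (lmFit, eBayes with a trend, 6 groups), and two-sided p-values were adjusted by Benjamini-Hochberg over 7280 probe sets, with 0.05 as the threshold. An adjusted p in the text is from this fit. A gene in a list is represented by its brightest probe set. The 3' to 5' ratios were compared by exact permutation over 70 splits with SciPy 1.17.1. The fit was tried on simulated data of 7280 probe sets with changes of 0.5, 1.0, 1.5 or 2.0, 50 of each size. It called 44 of 50 at 0.5 and 50 of 50 at each larger size, with 14 false calls. The simulated noise was independent between probe sets, so it held no array that stands apart as array 3 of 12 months does.

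The comparison, the genes and 30 of the lists were chosen with earlier results of these data known, and the ribosomal protein list was added after the values were seen. Named were the probe sets called, the 15 largest rises and falls without overlap at an unadjusted p below 0.05, up to 3 genes of smallest p per list, a fixed set of chamber, matrix and early response genes, and their other probe sets. The text names a part of these, picked after their values were seen. Alternatives changed the added constant, normalization, filter, spread estimate, arrays fitted and blocks, and left out each array in turn. The number of arrays limits the precision.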

Additional observations from a re-analysis of the deposited data

Results flagged for a closer look

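Of 218 groups of 4 arrays examined, 17 (7.8%) had 1 array far from the other 3 by Dixon's criterion, which chance meets in about 1 of 20 groups, and 8 of the 17 were array 3 of 12 months. Array 2 of 16 months was far above its group for Myl7 at 87.8 (others 15.3 to 26.6), for Myl4 X51531cds_g_at at 7.1 (others 0.7 to 1.3), for Nppa E00903cds_s_at at 2103.2 (others 1033 to 1204) and for Cdk5, a dim neuronal kinase, at 5.8 (others 2.0 to 2.4). Array 2 of 12 months was far below its group for Nppa E00775cds_s_at at 1509.8 (others 1842 to 1882).

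Array 3 of 12 months was far above the other 12-month arrays for Myl2 M11851_at at 3383.3 and for Timp2 at 428.6 (others 303 to 317). It was far below them for Myl2 X07314cds_at at 3339.9, Myl2 X07314cds_g_at at 2496.8 (others 3845 to 3957), Psmd1 AJ006340_s_at at 69.2 (others 92.2 to 94.4), Acsl1 at 176.6 (others 274 to 283) and Clcn3, a chloride transporter, at 29.7 (others 70.4 to 78.7). Its GAPDH 3' to 5' ratio was also far below, at 1.1743 (others 1.31 to 1.33). The remaining 4 were Slc16a1 on array 4 of 12 months at 82.7, Nr4a1 U17254_at on array 1 of 12 months at 34 (others 18.1 to 20.7), Krt18, an epithelial keratin, on array 2 of 12 months at 1.2 (others 6.1 to 6.4), and Oaz1, an inhibitor of polyamine synthesis, on array 3 of 16 months at 1013.5 (others 861 to 869).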

How the results depend on the processing

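Age and fluidics station were the same split of the arrays, array 3 of 12 months stood apart, and log2 changes of faint transcripts are compressed by the added constant. Myl7 passed under every setting tried except the block fits. The 1 probe set called became 3 with cyclic loess (2 of Myl7 and 1 of Myl4, adjusted p = 0.0481), and 2, both of Myl7, with median centring, the stricter filter or robust eBayes. It ranged from 1 to 2 with 1 array left out. The deviations of same-numbered arrays correlated at 0.201, 0.107, 0.213 and -0.166. Since 1 of the 4 was not above 0.1 and the labels tie the numbers to no shared animal, they were not taken as pairs in the main fit. The instrument records do tie them to a shared unit, since the number was the fluidics module on all 8 arrays. With the replicate block on the 8 arrays 0 probe sets were called (520 had an unadjusted p below 0.05) and Myl7 had an adjusted p of 0.0722. The fluidics module block, which is the same numbering, gave 0 as well. The WKY minus SHR difference had 0 calls as reported and with the replicate block on 16 arrays, 3 when only those 16 were fitted (Calr, Myl7 and Pax4), and 0 to 6 with 1 array left out, the 6 without SHR array 1 of 16 months. The log2 difference of the GAPDH ratio ranged from -0.00829, without array 3 of 12 months, to 0.0533 with 1 array left out. The sign turned for 15 of 105 gene probe sets under some setting, none of them called. With quantile normalization Myl2 X07314cds_at was 0.0681, Myl3 0.0258, Myh7 0.0346, Car4 S68245_at -0.0144, Pax4 AF053100_at -0.00226 and Egr1 U75398_s_at -0.0213. With cyclic loess Myl2 X07314cds_at was 0.131, Myl3 0.00109, Car4 -0.0193, Pax4 -0.00423 and Egr1 -0.0294. With median centring Myl2 X07314cds_g_at was -0.00841, Car4 -0.00458, Akt1 rc_AA799664_at -0.0105, Ldb3 rc_AA800216_at -0.00949, Pax4 -0.0173 and Egr1 -0.0150. With 1 array left out the ranges were -0.158 to 0.0517 and -0.139 to 0.0801 for these Myl2 probe sets, -0.0175 to 0.117 for Nppb, -0.0198 to 0.0932 for Psmd1 U57050_g_at, -0.0191 to 0.0530 for Car4, -0.0307 to 0.0775 for Akt1, -0.0466 to 0.126 for Ldb3, -0.0140 to 0.0319 for Pax4, -0.0361 to 0.230 for Vdac1 AF048828_g_at, -0.0256 to 0.231 for Slc3a2 X89225cds_s_at, -0.0206 to 0.0633 for Egr1, -0.0432 to 0.278 for Col1a1 and -0.179 to 0.0661 for Col3a1. The cause of these changes was not tested.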

Other observations

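Of 50 inflammation genes tested 29 were positive, with a median of 0.01, and 2 were higher and 0 lower at an unadjusted p below 0.05. Over all 4172 genes 59.6% were positive, 3.19% were higher and 1.27% were lower at that threshold. Il1b, an inflammatory cytokine, read 8.0, 9.0, 8.3 and 6.1 at 12 months and 13.8, 9.8, 16.7 and 10.6 at 16 months on one probe set. S100a9, a calcium-binding protein of neutrophils, read 7.2, 4.0, 9.7 and 6.2 against 11.4, 10.8, 11.6 and 10.8. On these probe sets every 16-month array was the higher, at log2 changes of 0.16 ± 0.06 and 0.16 ± 0.07 (limma adjusted p = 0.995 and 0.998), whereas the other Il1b probe set stood at -0.09 ± 0.06. Both genes were dim, since the array medians were 9.4 to 10.5 at 12 months and 10.6 to 11.4 at 16 months. Foxm1, a transcription factor of dividing cells, stood at 15.5 ± 7.0 and 27.2 ± 2.3 (SD, n = 4 each) with no overlap (0.33 ± 0.10, limma adjusted p = 0.752). Top2a, a topoisomerase of dividing cells, overlapped between ages on its brightest probe set (0.17 ± 0.07), and its 2 others stood at -0.08 and 0.01.

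Of 10 genes of the circadian clock and its outputs 6 were positive, beside 59.6% over all 4172 genes. Hlf stood at 0.29 ± 0.12, Nr1d1 at -0.29 ± 0.15 and Dbp at -0.15 ± 0.26 on the log2 scale, the last at -0.01 without array 3 of 12 months, and none passed. Oaz2, an antizyme that restrains polyamine synthesis, read 1545, 1312, 1925 and 1517 at 12 months and 1590, 1042, 1190 and 1042 at 16 months. The ages overlapped through array 1 of 16 months (-0.37 ± 0.15, limma adjusted p = 0.995). Ghr, the growth hormone receptor, stood at -0.28 ± 0.12 on its brightest probe set and at -0.08 and 0.04 on the others. Gpx4, which reduces lipid peroxides, stood at -0.30 ± 0.14, or -0.41 without array 3 of 12 months, and neither gene passed.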
